A study of Mus musculus with 15 samples.

Results

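H3K27ac, the acetylation of lysine 27 of histone H3, was compared between mouse embryonic stem cells (ESCs) and D-EPSCs, expanded potential stem cells kept in 1 of the study's EPSC media. All peaks of the ESC list (64342) and of the D-EPSC list (32782) were taken, which made 97124 of the 439369 peaks in the 6 lists of the series. A peak was called kept when at least 1 bp of it lay in a peak of the other list. An ESC peak without such overlap was called lost, and a D-EPSC peak without it was called gained. ESCs were the J1 line of strain 129SV in a serum and LIF medium with the 2i inhibitors CHIR99021 (of GSK3) and PD0325901 (of MEK), grown on mouse embryonic fibroblast feeders or on gelatin. D-EPSCs were derived from these cells and, by the study's methods, kept without feeders for several passages before ChIP. They were grown in N2B27 with KSR, LIF, CHIR99021, dimethindene maleate and minocycline hydrochloride, with no PD0325901 and no serum. LIF and CHIR99021 were thus shared by both states. ChIP used the antibody Abcam ab4729 on 2 samples per state, with 1 input per state, but the files hold 1 list per state. No difference below therefore has a replicate check or a test, and the line and the medium of 1 derivation stand for each state. Read depth is unknown from peak positions, and a deeper or cleaner library can give more and wider peaks. For that reason results are also given at equal covered bases, and in these cells fewer acetylated cells and less acetylation per cell cannot be told apart.

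H3K27ac is placed by the acetyltransferases p300 and CBP and marks active promoters and active enhancers. H3K4me1 marks enhancers whether they are active or only primed, so a site with H3K4me1 and no H3K27ac is commonly described as a primed enhancer. In mouse ESCs wide H3K27ac domains lie around genes of the naive pluripotency network. ERK signalling, which PD0325901 blocks, moves these cells from the naive towards the formative state.

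The sequence upstream of start sites differed between promoters that lost and promoters that gained a peak, so 3 of each are shown first. Each is the 250 bases before the annotated start of the gene on mm9, 5′ to 3′ on the gene's strand, and capitals mark CG dinucleotides. Pramel7 (chr2:87337251-87337500, minus strand), Ldha (chr7:54096595-54096844, plus strand) and Eomes (chr9:118387080-118387329, plus strand) had an ESC peak and no D-EPSC peak within 1 kb of the start.
Pramel7 promoter: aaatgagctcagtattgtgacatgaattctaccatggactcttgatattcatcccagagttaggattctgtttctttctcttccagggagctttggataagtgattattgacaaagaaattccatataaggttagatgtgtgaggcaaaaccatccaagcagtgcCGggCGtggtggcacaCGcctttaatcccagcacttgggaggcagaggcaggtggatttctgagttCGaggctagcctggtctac
Ldha promoter: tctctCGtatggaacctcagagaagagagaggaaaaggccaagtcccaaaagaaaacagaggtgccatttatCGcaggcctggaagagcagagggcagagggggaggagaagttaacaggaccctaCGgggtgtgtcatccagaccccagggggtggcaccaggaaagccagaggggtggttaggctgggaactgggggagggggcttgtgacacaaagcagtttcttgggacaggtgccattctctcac
Eomes promoter: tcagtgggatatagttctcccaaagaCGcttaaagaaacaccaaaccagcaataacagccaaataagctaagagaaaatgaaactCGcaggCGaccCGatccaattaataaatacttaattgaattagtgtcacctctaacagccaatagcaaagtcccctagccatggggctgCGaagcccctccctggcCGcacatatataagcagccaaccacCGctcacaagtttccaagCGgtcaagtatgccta
These windows held 4, 3 and 8 CG dinucleotides. Dusp4 (chr8:35870101-35870350, plus strand), Acvr2a (chr2:48669379-48669628, plus strand) and Smad3 (chr9:63605802-63606051, minus strand) had a D-EPSC peak and no ESC peak there.
Dusp4 promoter: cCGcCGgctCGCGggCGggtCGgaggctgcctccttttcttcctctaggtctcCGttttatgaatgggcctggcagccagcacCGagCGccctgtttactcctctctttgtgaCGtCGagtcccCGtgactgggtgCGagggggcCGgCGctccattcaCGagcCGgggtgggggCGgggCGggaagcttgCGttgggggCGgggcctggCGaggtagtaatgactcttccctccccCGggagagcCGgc
Acvr2a promoter: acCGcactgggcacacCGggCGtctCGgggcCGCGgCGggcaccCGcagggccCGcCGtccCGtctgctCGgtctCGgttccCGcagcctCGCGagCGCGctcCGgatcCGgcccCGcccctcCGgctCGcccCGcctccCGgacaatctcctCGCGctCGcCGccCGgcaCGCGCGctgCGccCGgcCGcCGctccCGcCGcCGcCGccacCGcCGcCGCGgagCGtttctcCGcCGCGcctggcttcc
Smad3 promoter: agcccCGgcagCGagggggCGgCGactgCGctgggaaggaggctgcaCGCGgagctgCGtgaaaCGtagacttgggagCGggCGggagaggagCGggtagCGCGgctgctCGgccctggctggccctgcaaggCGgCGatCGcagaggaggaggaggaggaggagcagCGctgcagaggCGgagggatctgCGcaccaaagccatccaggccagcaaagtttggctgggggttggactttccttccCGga
They held 24, 49 and 22. A region away from start sites is shown as the central 300 bases of a lost peak on the plus strand, since it belongs to 1 of the widest isolated losses. It lies within Fgf10 (chr13:119497282-119497581) in an ESC peak of 11483 bp that also covers an exon.
Fgf10 lost region: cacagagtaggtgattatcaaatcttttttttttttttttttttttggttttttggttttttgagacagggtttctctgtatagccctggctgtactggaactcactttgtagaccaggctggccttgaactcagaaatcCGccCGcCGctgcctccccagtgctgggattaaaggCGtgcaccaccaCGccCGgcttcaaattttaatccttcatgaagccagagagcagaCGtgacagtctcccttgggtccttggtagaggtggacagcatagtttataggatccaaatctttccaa
This distal window held 7 CG dinucleotides.

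The D-EPSC list held fewer H3K27ac peaks and covered bases than the ESC list, and as deposited its peaks lay mostly inside ESC peaks. At equal covered bases 27.9% (widest ESC peaks) or 44.7% (trimmed ESC peaks) of D-EPSC peaks did. Of the ESC peaks, 40883 were lost (63.5%, exact 95% binomial interval 63.2 to 63.9) and 23459 were kept. Of the D-EPSC peaks, 26727 were kept and 6055 were gained (18.5%, 18.1 to 18.9). These intervals cover the counting of peaks only. Kept ESC peaks were wide, with a median of 1751 bp, while lost ESC peaks had a median of 673 bp. Gained peaks were the narrowest, with a median of 498 bp against 949 bp in kept D-EPSC peaks.

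Loss took 2 forms of similar size. Whole ESC peaks that were lost held 39.6 Mb, or 36.9% of the ESC bases. Narrowing within kept peaks removed a further 32.9 Mb, or 30.7%, since D-EPSC peaks covered 51.4% of the bases of the ESC peaks that were kept. Most kept ESC peaks (20317, or 86.6%) met 1 D-EPSC peak, 2213 met 2, and 929 met 3 or more. The ESC peaks that met 3 or more D-EPSC peaks had a median width of 11605 bp, against 1488 bp in those that met 1. A wide peak has more room for several D-EPSC peaks, so this difference follows in part from the grouping. In the other direction, gained peaks held 4.28 Mb, and kept D-EPSC peaks extended over 5.30 Mb outside ESC peaks.

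Promoters kept their peaks and the flanks around them lost theirs. The 5′ end of each of 22350 protein-coding gene records in GENCODE M1 was taken as its start site, and a peak within 1 kb of one was counted as at a start site. Only 4.44% of lost peaks were at a start site (interval 4.25 to 4.65), against 25.5% of kept ESC peaks (24.9 to 26.0) and 23.9% of gained peaks (22.9 to 25). Seen from the ESC list, 5974 of 7791 peaks at start sites were kept (76.7%). At 1 to 10 kb from a start site 27.4% were kept, at 10 to 50 kb 30.2%, and beyond 50 kb 35.2%. The lowest retention was therefore not far from genes but next to them.

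**Figure D1:**
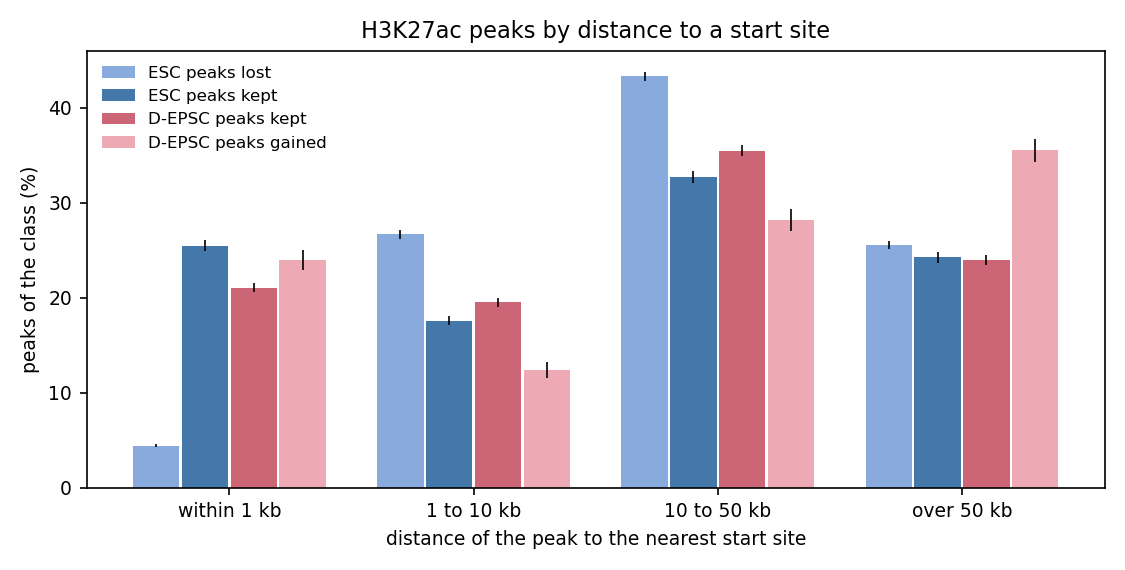
Share of peaks in each class (y axis, percent) by distance to the nearest protein-coding start site (x axis). Bars are the lost and kept ESC peaks and the kept and gained D-EPSC peaks, and error bars are exact 95% binomial intervals over peaks. Lost peaks are nearly missing from the first group of bars (4.44%), where the other 3 classes lie between 21% and 25.5%.

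The same order held for covered bases. Bases within 1 kb of a start site were 7.89 Mb in ESCs and 6.93 Mb in D-EPSCs, a log2 ratio of -0.19. At 1 to 10 kb the lists covered 28.6 Mb and 9.48 Mb, a log2 ratio of -1.59. The ratio was -1.48 at 10 to 50 kb and -1.12 beyond 50 kb. As a result the bases within 1 kb of a start site made up 15.6% of the D-EPSC list and 7.35% of the ESC list. When the ESC list was cut to the bases of the D-EPSC list, the ratio at 1 to 10 kb was still the lowest (-0.38 with the widest ESC peaks, -0.37 with every ESC peak trimmed by 817 bp at both ends), while within 1 kb it turned to 1.74 and 1.5.

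Start sites kept more of their ESC peaks than other places in every width class. Among ESC peaks under 500 bp, 58.2% were kept at start sites (55.6 to 60.8, of 1425 peaks) and 11.3% elsewhere (10.8 to 11.8, of 15237). Among those of 1 to 2 kb the shares were 81.4% and 34.3%. Among those of at least 4 kb they were 95.2% and 85.9%, the smallest gap of the 5 classes. In the D-EPSC list the order was the reverse among narrow peaks: under 500 bp, 53.5% of its peaks at start sites and 71.2% of its other peaks lay in an ESC peak. From 1 kb upwards D-EPSC peaks at start sites were the ones more often in an ESC peak, with 92.8% against 88.3% at 1 to 2 kb.

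**Figure D2:**
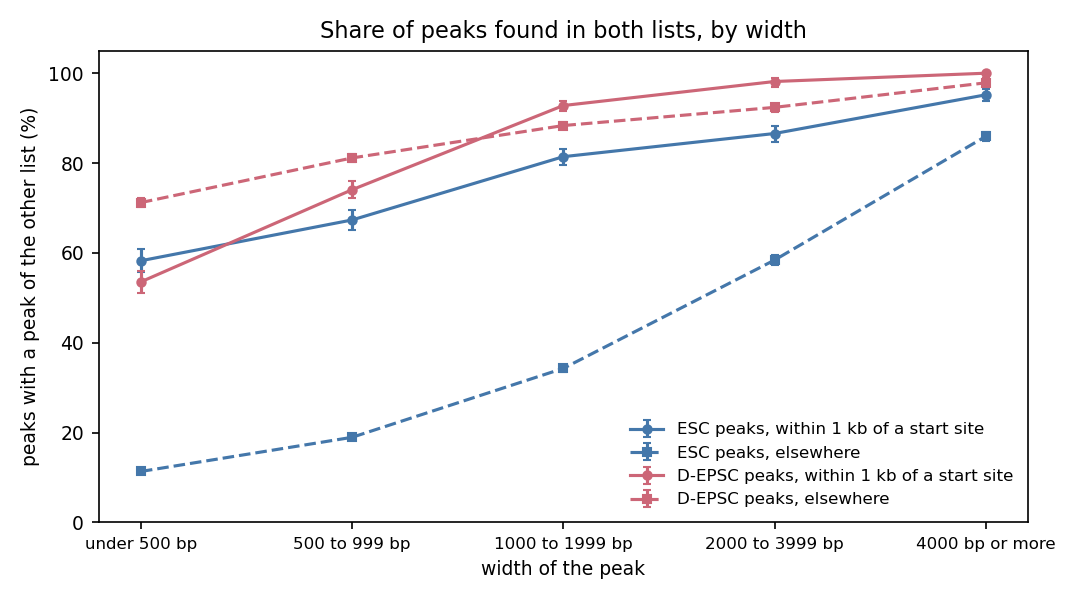
Share of peaks that overlap a peak of the other list (y axis, percent) by peak width (x axis), for ESC and D-EPSC peaks within 1 kb of a start site (solid lines) and elsewhere (dashed lines). Error bars are exact 95% binomial intervals. The dashed ESC line runs from 11.3% to 85.9% and lies under the solid ESC line at every width.

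The number of start sites with a peak hardly differed between the states, 7979 in ESCs and 7892 in D-EPSCs, because losses and gains were of similar number. Of all start sites, 1515 lost a peak (6.78%), 6464 kept one, 1428 gained one (6.39%), and 12943 had none in either list. Near the sites that lost a peak, 752 of 1515 (49.6%) had a D-EPSC peak within 10 kb. For sites that gained a peak the same share, measured with ESC peaks, was 48.6%. In the L-EPSC list, which comes from the other EPSC medium, 83.7% of kept, 47.5% of gained and 14.8% of lost start sites had an H3K27ac peak. That list was smaller (26966 peaks and 34.3 Mb, against 32782 peaks and 44.4 Mb in D-EPSCs). No L-EPSC value here was taken at equal covered bases.

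Start sites that lost a peak had fewer CpG dinucleotides than those that kept or gained one. In the window from 250 bases before to 50 bases after the start, the median was 11 CpG at lost sites, 21 at kept sites and 22.5 at gained sites, with 11 over all start sites, so lost sites were at the value of all. The 3 lost promoters printed above held 4, 3 and 8, but in windows without the 50 bases after the start, so they are not directly comparable with the median of 11. A window was called CpG rich with at least 50% GC and an observed over expected CpG of at least 0.6. By that definition 36.9% of lost sites were CpG rich (34.4 to 39.3), against 72.9% of kept (71.8 to 74.0), 77.1% of gained (74.8 to 79.3) and 42.0% of all sites. Of CpG-rich start sites with an ESC peak 89.4% kept it, and of CpG-poor ones 64.7% did. CpG-rich promoters are mostly those of widely expressed genes, and CpG-poor ones are more often tissue-restricted.

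Of 18 strings searched at start sites, some GC-rich ones followed the same split and others did not. CCGGAAGT, the core of Ets family sites, was found on either strand in 11.9% of gained, 8.76% of kept and 4.10% of lost start site windows, and in 4.70% of all. CACGTG, the E-box, was found in 14.3%, 10.9% and 7.0%, and in 7.79% of all. GGGCGGGG, the GC box of Sp and Klf factors, was found in 35.2%, 34% and 24.0%, and in 22.1% of all. By contrast CCAAT, the NFY site, was found in 38.9% of gained, 38% of kept and 39.2% of lost windows. GGGTGTGG, a Klf site, was highest at lost sites (4.36%, against 3.57% of gained and 3.48% of kept), and TGANTCA, the AP-1 site, was found in 3.78% of gained, 4.67% of kept and 5.61% of lost windows. In the central 300 bases of peaks away from start sites other strings differed. TCAAGGTCA, the extended site that Esrrb binds, was found in 1.58% of lost, 1.5% of kept ESC and 0.695% of gained peaks, with 0.594% in 85193 windows spaced 30 kb apart along the genome. TGANTCA was found in 9.70%, 12.1% and 13.2%, with 8.80% in the genome windows. The Esrrb string stayed less frequent in gained peaks among windows of 35 to 45% GC (0.75%, against 1.68% of lost) and of 45 to 55% GC (0.947%, against 1.73%). None of these strings contains another. Each was searched on both strands. The letters are a description of the windows and do not show that a factor was bound.

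Peaks that lost H3K27ac away from start sites often overlapped H3K4me1 in D-EPSCs, though less often than in ESCs. The share with H3K4me1 in both states was not counted. Of these 39066 lost peaks, 82.8% overlapped an ESC H3K4me1 peak and 64.7% overlapped a D-EPSC H3K4me1 peak (64.2 to 65.2). Kept ESC peaks away from start sites had H3K4me1 in 88.6% in ESCs and 90.6% in D-EPSCs. Of the 4605 gained peaks away from start sites, 56.1% already lay in an ESC H3K4me1 peak and 74.2% lay in a D-EPSC one. The L-EPSC H3K27ac list overlapped 7.47% of the lost, 61.9% of the kept ESC and 24.6% of the gained peaks away from start sites.

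Covered bases per gene were the bases under peaks over the gene and 10 kb on either side. Ratios were taken after adding 0.5 kb to both states, and genes with at least 2 kb in either state (9856) were compared. Against ESCs, 5908 genes were lower in D-EPSCs by 2-fold or more (59.9%) and 214 were higher (2.17%), with a median log2 ratio of -1.24. A list with a share of lower genes near 59.9% therefore behaved like the whole genome. The loci of neighbouring genes overlap, so 1 peak can count for several genes.

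**Figure D3:**
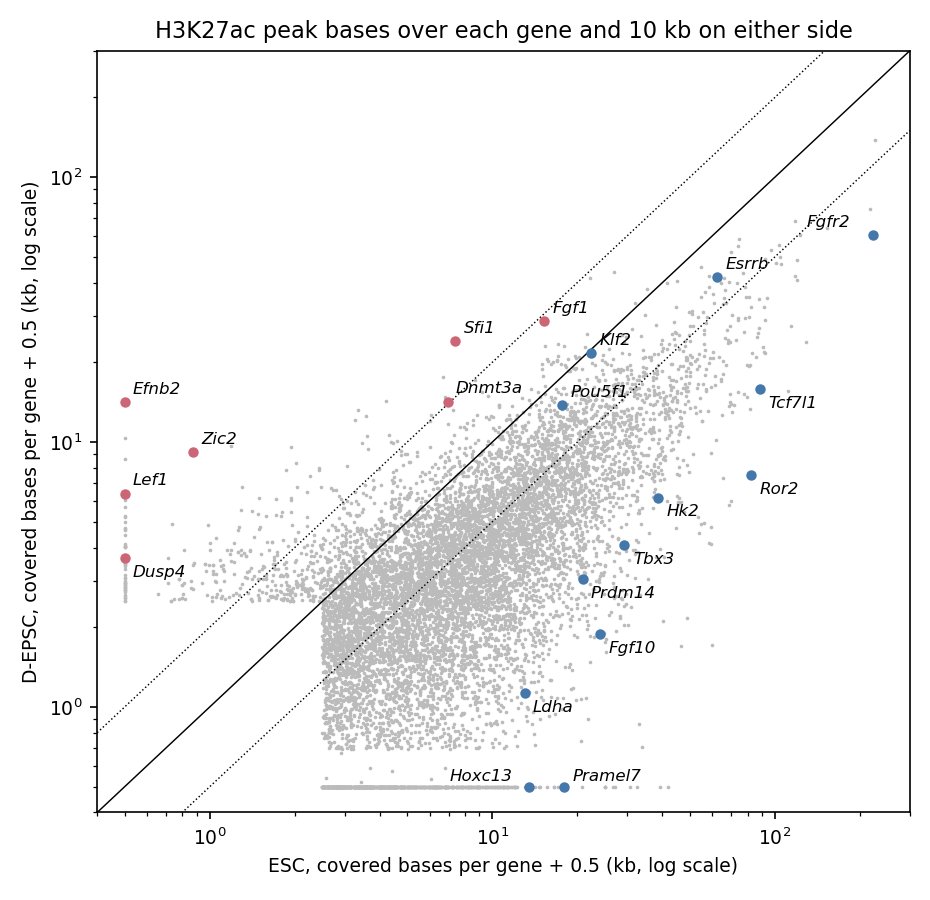
Covered bases per gene in ESCs (x axis) and D-EPSCs (y axis), in kb with 0.5 kb added, on log scales, for the 9856 genes with at least 2 kb in either state. The solid line marks equal values and the dotted lines mark 2-fold differences, and named genes are in colour, blue where lower and red where higher in D-EPSCs. Most genes lie under the solid line, while Zic2, Lef1, Efnb2 and Dusp4 sit at the left edge with little or no ESC cover.

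Genes were named by the size of the difference in covered bases, among loci of at most 200 kb. For falls this ranking favours long loci with much ESC cover. Ror2, a receptor for Wnt5a, was covered over 82.1 kb in ESCs and 7.01 kb in D-EPSCs, a log2 ratio of -3.46, and had no D-EPSC peak at its start site. Tcf7l1, the Tcf factor that represses pluripotency genes in ESCs, was covered over 87.8 kb and 15.4 kb. Dab2ip, a Ras GTPase-activating protein, went from 68.3 kb to 5.29 kb, and Arhgef10l, a guanine nucleotide exchange factor, went from 69.3 kb to 5.50 kb. The other 6 of the 10 genes with the largest falls were at Nmnat2, Rai14, Aff1, Tsc22d1, Rbpms and Tmem131, with differences between -70.7 kb and -61.6 kb. Rbpms kept most in absolute terms, with 122 kb in ESCs and 59.9 kb in D-EPSCs. Its log2 ratio of -1.02 was a smaller fall than the median of -1.24 over all genes. The rule required the same direction at equal covered bases, and 9 of the 10 were also lower by 2-fold against the trimmed ESC list, Rbpms being the exception.

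The rises were smaller than the falls. Efnb2, which encodes the Eph receptor ligand ephrin B2, had no ESC peak over its locus and 13.6 kb of D-EPSC peaks in 9 peaks. Within 20 kb of the start site, where ESC peaks lie upstream, its log2 ratio was 0.87 and under 2-fold. Fgf1, an FGF ligand, was covered over 14.8 kb in ESCs and 28.2 kb in D-EPSCs, just under 2-fold. Cybb, the catalytic subunit of the phagocyte NADPH oxidase on chromosome X, had 0 kb and 9.88 kb, and Pacs1, a sorting protein, had 0 kb and 8.13 kb. Zic2 and Dnmt3a are described with their lists. Sfi1, a centrosomal gene, showed the largest rise, from 6.89 kb to 23.5 kb. The other named rises were at 4930524B15Rik, Gm10203 and Cuedc1, with differences of 10.1 kb, 9.85 kb and 7.78 kb. Cuedc1 was not higher by 2-fold (log2 0.59), and within 20 kb of its start site it was lower (log2 -1.08). The central 300 bases were mostly made of 31-base words that occur more than once in the genome in 2 of 20 D-EPSC peaks at Sfi1, 1 of 4 at Gm10203, 1 of 6 at Cybb, 1 of 7 at Pacs1 and none of 9 at Efnb2. Among all gained peaks this held for 6.82% (6.2 to 7.49), against 4.56% of kept D-EPSC and 3.33% of lost peaks, and its part in the gains was not tested. The count sees only copies present in the reference genome, and no filter for artefact regions was applied here, at Sfi1 or elsewhere.

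The core pluripotency factors stayed covered. Pou5f1 had 17.2 kb in ESCs and 13.3 kb in D-EPSCs, Sox2 had 13.6 kb and 7.13 kb, and Nanog had 19.6 kb and 12.6 kb. All 3 had peaks at their start sites in both states and none was lower by 2-fold. The naive factors, which hold ESCs in the ground state, were split. Of 20 with enough cover, 11 were lower and none was higher, near the share over all genes. Klf2 (21.9 kb and 21.2 kb) and Dppa5a (19.3 kb and 18.5 kb) were nearly the same in both lists, and Esrrb went from 62.1 kb to 41.4 kb. By contrast Tbx3, a T-box factor of the naive network, was covered over 28.9 kb in ESCs and 3.59 kb in D-EPSCs. Prdm14, which restrains FGF signalling and DNA methylation, went from 20.4 kb to 2.53 kb, and Klf5 went from 18.4 kb to 2.83 kb. Tfcp2l1, a target of LIF and STAT3, went from 45.9 kb to 14.8 kb. Nr5a2, an orphan nuclear receptor that can activate Pou5f1, went from 28.5 kb to 6.54 kb and lost its start site peak. Tbx3, Prdm14 and Tfcp2l1 were still lower by 2-fold against the trimmed ESC list, while Klf5 and Nr5a2 were not.

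The L-EPSC medium held KSR, LIF, CHIR99021, PD0325901, A-419259, XAV939, JNK inhibitor VIII and SB203580, and the parts of these cannot be told apart. The L-EPSC list gave other values for some of these genes. Tbx3 had 13.9 kb there, Prdm14 2.73 kb, Klf5 1.11 kb and Tfcp2l1 16.7 kb. Tbx3 thus lay between ESCs and D-EPSCs, Prdm14 and Tfcp2l1 were near the D-EPSC level, and Klf5 was below it. The L-EPSC list covered fewer bases in all (34.3 Mb against 44.4 Mb in D-EPSCs), and the part of this in these values was not tested.

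Formative and primed epiblast factors held 4 of the genes with higher cover. Of 19 with enough cover, 4 were higher, 5 were lower and 10 lay between, with a median log2 ratio of -0.29 against -1.24 over all genes. Zic2, a zinc finger factor of the formative state, had 0.37 kb in ESCs and 8.69 kb in D-EPSCs, and its neighbour Zic5 had 1.45 kb and 9.04 kb. These adjacent genes share D-EPSC peaks, the widest of which runs from 3.14 kb upstream to 1.86 kb downstream of the Zic2 start. Lef1, a Wnt effector that rises in formative cells, had no ESC peak in its locus and 5.90 kb of D-EPSC peaks, most of it upstream of the start. Dnmt3a, a de novo DNA methyltransferase, had 6.45 kb and 13.7 kb. Otx2, a driver of the exit from the naive state, had 11.1 kb and 10.8 kb, whereas Fgf5, Pou3f1 and Sox3 had no peak in either list. Of the 17 genes compared against the trimmed ESC list, 9 were higher by 2-fold and none was lower. Over all genes 30.2% were higher against that list, whose trimming removes narrow ESC peaks first.

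Targets and feedback genes of the ERK pathway were lower in fewer cases than all genes. Of 14, 4 were lower and 1 was higher, with a median log2 ratio of -0.50. The higher one was Dusp4, a nuclear phosphatase that switches off ERK, with no ESC peak and 3.14 kb in D-EPSCs including a peak at its start site. Etv5, an Ets factor induced by FGF, had 54.1 kb in ESCs and 45.2 kb in D-EPSCs, and its 26865 bp peak was the third widest of the D-EPSC list. Feedback inhibitors varied. Spry4 went from 22.0 kb to 5.84 kb and Spred2 from 67.8 kb to 23.2 kb, while Spry2 (12.7 kb and 6.84 kb), Dusp6 (5.59 kb and 3.46 kb) and Spred1 (3.69 kb and 2.95 kb) were not lower by 2-fold. Spred2 was under 2-fold within 20 kb of its start site (log2 -0.77) and against the trimmed ESC list (-0.84). Myc went from 8.29 kb to 0.49 kb and lost its start site peak, but its log2 ratio turned from -3.15 to 0.99 against the widest ESC peaks. In the L-EPSC list, which is smaller than the D-EPSC list, Dusp4 and Lef1 had no covered base, Zic2 had 3.90 kb and Spry4 had 1.71 kb. The part of list size in these values was not tested.

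FGF ligands and LIF pathway genes were lower about as often as all genes or more. Of 11 FGF ligand genes 7 were lower and none was higher by 2-fold. Fgf10, a mesenchymal FGF, had 23.5 kb in ESCs, including the peak printed above, and 1.38 kb in D-EPSCs. Fgf4, the main FGF of ESCs, had 23.4 kb and 16.5 kb. Of 15 genes of LIF signalling 11 were lower. Against the trimmed ESC list 1 of 11 was lower and 1 was higher (16.5% and 30.2% over all genes). Lifr, the LIF receptor, went from 25.8 kb to 7.42 kb, and its partner Il6st from 7.53 kb to 0.64 kb. Lifr was under 2-fold at equal bases (log2 -0.68 and -0.48), and both were within 20 kb of their start sites (-0.69 and -0.78). Stat3, the transcription factor under both, went from 15.7 kb to 3.88 kb, but its log2 ratio turned from -1.89 to 3.13 against the widest ESC peaks. LIF was in both media.

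Nodal and Wnt pathway genes were lower in 6 of 12 and 13 of 18, against 59.9% of all genes. Among 12 Nodal and Lefty signalling genes 6 were lower. The receptor Acvr1b went from 20.5 kb to 2.54 kb, the inhibitor Smad7 from 28.8 kb to 7.74 kb, and Lefty2, a Nodal antagonist, from 20.2 kb to 5.65 kb with loss of its start site peak. Of 18 Wnt genes 13 were lower and only Lef1 was higher. Against the trimmed ESC list 1 of 13 was lower and 5 were higher (16.5% and 30.2% over all genes). Beside Tcf7l1, Tcf7l2 went from 31.4 kb to 3.29 kb, a log2 ratio of -3.07 that turned to 2.92 against the widest ESC peaks. Cdx1, a direct Wnt target, had 7.28 kb in ESCs and Axin1, a scaffold of the beta-catenin destruction complex, had 4.78 kb, and neither had a covered base in D-EPSCs. Against the trimmed ESC list Cdx1 (log2 -0.86) and Axin1 (0, no base left in either list) were no longer lower by 2-fold. CHIR99021, which activates this pathway, was in both media.

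Among chromatin genes, polycomb members were lower most often. Over all genes 59.9% were lower, with a median log2 ratio of -1.24. Of 10 genes of polycomb repressive complex 2 with enough cover, 9 were lower and none was higher, with a median of -1.39. Ezh2, its methyltransferase, went from 10.3 kb to 1.86 kb, and Jarid2, its recruiting subunit, from 78.0 kb to 28.9 kb. Jarid2 was under 2-fold within 20 kb of its start site (log2 -0.32) and against the trimmed ESC list (-0.52). Ezh1, the other methyltransferase, had 8.33 kb in ESCs and no covered base in D-EPSCs. Against the trimmed ESC list 3 of 9 were lower and none was higher (16.5% and 30.2% over all genes). Among 17 DNA methylation genes 5 were lower and only Dnmt3a was higher. Uhrf1, the maintenance cofactor of Dnmt1, went from 15.7 kb to 3.17 kb and Tet1, which oxidises 5-methylcytosine, from 55.8 kb to 20.7 kb, while Gadd45a had 4.39 kb and 8.53 kb. Of 22 histone acetyltransferase, deacetylase and bromodomain genes 13 were lower, close to the share over all genes.

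Metabolic genes were lower about as often as all genes. Of 24 glycolysis genes 13 were lower and none was higher. Hk2, the hexokinase at the entry of the pathway, went from 38.0 kb to 5.67 kb. Ldha, which makes lactate, went from 12.5 kb to 0.63 kb and lost its start site peak. Of 18 genes of the TCA cycle and respiratory chain 9 were lower, among them Idh2 with 21.4 kb and 8.62 kb. Against the trimmed ESC list none of 16 was lower and 6 were higher (16.5% and 30.2% over all genes). Idh2 was under 2-fold against that list (log2 -0.59). Of 15 cholesterol and lipid synthesis genes 8 were lower, including the regulator Srebf2 (28.5 kb and 7.43 kb) and the desaturase Scd2 (21.9 kb and 4.30 kb). Ribosomal protein genes, which have CpG-rich promoters and few enhancers, were lower in 20 of 50 and higher in 2 (Rps18 with 1.17 kb and 3.69 kb, and Rpl35 with 1.18 kb and 3.08 kb). Of the 53 in the list, 52 had a start site peak in each state and 51 had one in both.

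Genes of other lineages had little cover in either state, and the members with enough cover were mostly lower in D-EPSCs (5 of 7 trophoblast and 4 of 5 primitive endoderm genes). Over all genes the share was 59.9%. Of 19 gastrulation and mesoderm genes 6 had enough cover and all 6 were lower. Against the trimmed ESC list 1 of 4 trophoblast genes was lower and 1 was higher (16.5% and 30.2% over all genes). None of 4 primitive endoderm and none of 2 gastrulation and mesoderm genes was lower against it. Eomes, printed above, had 3.75 kb in ESCs and no covered base in D-EPSCs. Tead4, a trophoblast regulator, went from 46.0 kb to 5.45 kb and lost its start site peak. Cdx2, Elf5 and Krt7 of the trophoblast, and Gata6, Sox17, Sox7, Pdgfra and Foxa2 of the primitive endoderm, had no peak in either list. Lama1, a basement membrane laminin, had 12.6 kb and 0 kb, and Sparc had 17.3 kb and 3.65 kb. Of the 39 Hox genes 24 had no covered base. The 6 with enough cover were Hoxb13 and 5 HoxC genes, and all 6 were lower, led by Hoxc13 (12.9 kb) and Hoxc12 (11.7 kb), both with none in D-EPSCs. Neighbouring loci can share peaks, so these need not be 6 separate losses. Fgfr2 counts among the lower genes of the trophoblast and endoderm lists, but its record in this annotation spans a region far longer than the gene and its value was not used alone.

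Pramel6 and Pramel7, which are expressed in the naive state and the inner cell mass, lost every peak in their loci. Pramel7 had 17.4 kb in ESCs and Pramel6 had 16.1 kb, over loci that overlap, and neither had a covered base in D-EPSCs. H3K4me1 over these loci was 16.1 kb in ESCs and 1.5 kb in D-EPSCs at Pramel7, and 15.8 kb and 1.44 kb at Pramel6. Zscan5b, a zinc finger gene expressed at the 2-cell stage, went from 25.9 kb to 5.68 kb. Zscan4b to Zscan4f, Zfp352 and Duxf3 had no peak within 10 kb in either list, and near-identical copies in this family can keep reads from being placed. Of 8 imprinted genes 5 were lower, against 59.9% of all genes. Among the 5 were Plagl1 (10.7 kb and 0.21 kb), Slc38a4 (20.6 kb and 2.74 kb) and Grb10 (27.3 kb and 6.43 kb).

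ESCs could be grown on feeder cells, while D-EPSCs were kept without feeders before ChIP, so fibroblast markers were read in both lists. Of 23 markers 14 had no covered base in either list, among them Thy1, Dcn, Postn, Twist2 and Prrx1. The summed cover of the 23 loci was 57.0 kb in ESCs and 27.7 kb in D-EPSCs. Col1a1 had 11.1 kb in ESCs and 1.03 kb in D-EPSCs, with no peak at its start site in either. Of the 5 markers with enough cover 2 were lower, against 59.9% of all genes. The part of feeder cells in the results was not tested. The ESC markers Pou5f1, Sox2, Nanog, Zfp42, Dppa5a and Tdgf1 had start site peaks in both lists, and Esrrb was covered along the gene body.

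The other lists held fewer covered genes, and over all genes 59.9% were lower. Of 7 retinoic acid genes 4 were lower, among them the receptors Rara (31.7 kb and 10.8 kb) and Rarg (26.8 kb and 8.36 kb), while Rarb, the third receptor, had 0.51 kb and 3.67 kb. Of 11 serum response and YAP targets 8 were lower, with Yap1 itself at 36.8 kb and 11.7 kb. Against the trimmed ESC list Yap1 (log2 -0.59), Rara (-0.65) and Rarg (-0.87) were under 2-fold. Of 4 germline genes 1 was lower, and both neural genes with enough cover were lower. Of 37 genes that the study discusses 21 were lower and 3 were higher, and since the study chose them on these cells they are no independent evidence of a direction.

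**Figure D4:**
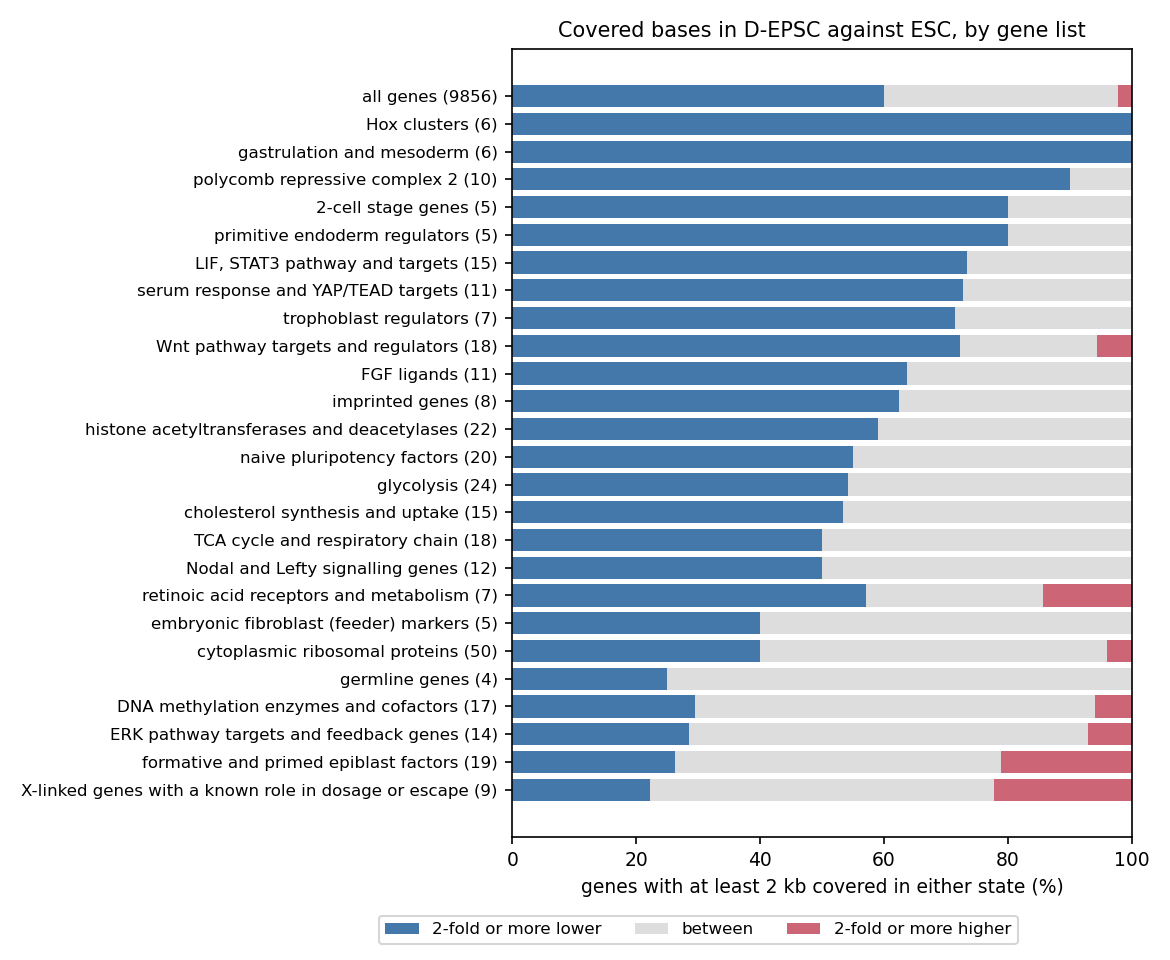
Share of genes (x axis, percent) that were lower by 2-fold or more, between, or higher by 2-fold or more in covered bases in D-EPSCs, for gene lists with at least 4 members with 2 kb in either state (number in brackets) and for all 9856 genes. Formative factors (4 of 19) and X-linked genes (2 of 9) have the widest red segments, and polycomb repressive complex 2 (9 of 10) is among the lists with the longest blue ones.

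Single peaks gave the same picture at a finer scale. The 3 widest of 17177 ESC peaks with no D-EPSC peak within 10 kb lay over Mras (chr9:99310495-99329713, 19219 bp, over exons and a UTR), in an intron of Rftn1 (chr17:50157949-50173540, 15592 bp) and between genes 12486 bp from the start of Pomp (chr5:148646127-148659718, 13592 bp). D-EPSC H3K4me1 still covered 13953 bp of the Mras region but only 3300 bp of the Rftn1 region. The 3 widest of 2913 D-EPSC peaks with no ESC peak within 10 kb were all between genes. They were chrX:112082429-112091504 (9076 bp), chr7:56168893-56176028 (7136 bp, with E2f8 the nearest start site) and chr5:4301606-4308406 (6801 bp). ESC H3K4me1 covered 0 bp of the first, 4694 bp of the second and 3157 bp of the third, and D-EPSC H3K4me1 covered 4316 bp, 7136 bp and 6801 bp.

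The widest peaks of each list lay at loci acetylated in both states. In ESCs these included peaks in an intron of Pitpnc1 (50003 bp, of which D-EPSC peaks covered 31192 bp), over Fbxo36, over Sall1 and over Rbpms2. In D-EPSCs they were over a histone gene cluster on chromosome 13 (29180 bp, of which ESC peaks covered 26741 bp), over Sall1 (28268 bp, wholly within ESC peaks), at Etv5, over Etl4 and 4482 bp from the start of H2afb1. Sall1, a zinc finger factor expressed in ESCs, was in both sets.

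Among start sites with an ESC peak and no D-EPSC peak within 1 kb, the widest ESC peaks were at Sncg (37391 bp), Fcgrt (30656 bp), Kif13b (27523 bp), Jam2 (25560 bp) and Zfp217 (21434 bp). All 5 loci still held between 5.91 kb and 16.6 kb of D-EPSC peaks. The widest D-EPSC peaks within 1 kb of a start site without an ESC peak there were at Hist1h4n (10848 bp), Cyp4a31 (8949 bp), Gm10203 (8378 bp), the shared promoter of Dnajc7 and Nkiras2 (7177 bp) and Cyp2c69 (6220 bp). These loci held between 2.19 kb and 11.2 kb of ESC peaks. Dnajc7 had 11.2 kb in ESCs and 10.4 kb in D-EPSCs. The centres of the Cyp4a31 and Cyp2c69 peaks were repeated in the genome as defined above, and these belong to multigene families, so they are uncertain.

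**Figure D5:**
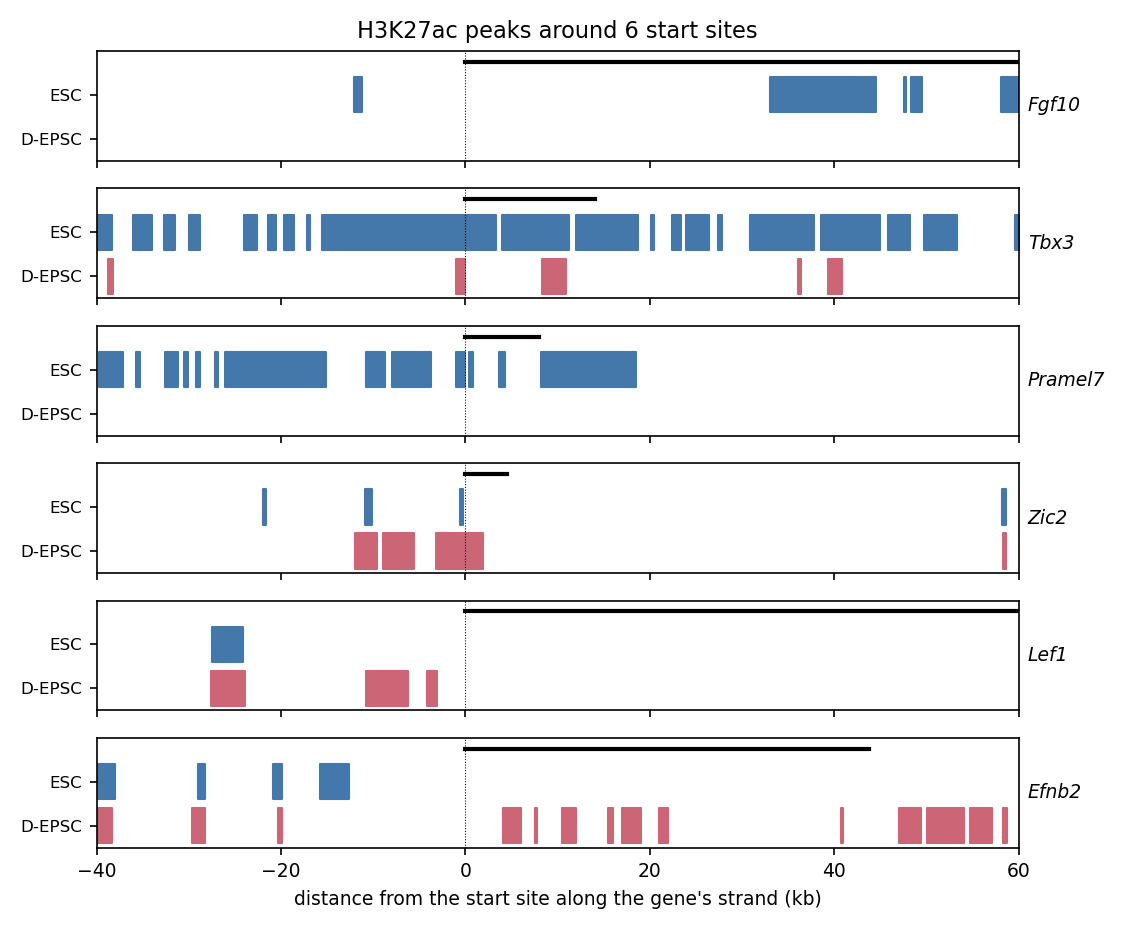
H3K27ac peaks of ESCs (blue) and D-EPSCs (red) around the start sites of 6 genes, by distance from the start site along the gene's strand (x axis, kb), cut at 40 kb upstream and 60 kb downstream. The black bar is the gene. Fgf10 and Pramel7 have ESC peaks and no D-EPSC peak in view, Tbx3 keeps 5 small D-EPSC peaks, and Zic2, Lef1 and Efnb2 have D-EPSC peaks where ESC peaks are few or missing.

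Chromosome X also had fewer covered bases in D-EPSCs (0.727 Mb in ESCs and 0.579 Mb in D-EPSCs, a log2 ratio of -0.33), but the difference was smaller than the -1.27 over all chromosomes. Of its 640 ESC peaks 46.3% were kept, against 32.1% to 40.1% on the 19 autosomes. Of its 486 D-EPSC peaks 208 were gained (42.8%), against 15.0% to 23.1%. Start sites with a peak numbered 108 in ESCs and 162 in D-EPSCs on chromosome X. Of the latter 76 were gained (46.9%), against 12.7% to 25.4% on autosomes, while the share of ESC start sites lost (20.4%) was inside the autosomal range of 8.78% to 27.2%. The chromosome thus differed by gains and not by fewer losses at start sites. Of its 117 genes with enough cover 37 were lower and 11 were higher, and their median log2 ratio was -0.47, against -1.40 to -0.99 on autosomes. Rlim, a ubiquitin ligase that activates Xist, had 0.78 kb in ESCs and 4.27 kb in D-EPSCs, and the histone demethylase Kdm6a had 1.23 kb and 3.25 kb. Of 9 X-linked genes with a known role in dosage or escape, these 2 were higher, 2 were lower and 5 lay between. Of the 208 gained peaks on chromosome X, 11.5% had a repeated centre, against 6.65% of those on autosomes, and the part of this in the result was not tested.

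At equal covered bases the balance of genes turned, with 2-fold higher genes outnumbering lower ones. Cut to its 6016 widest peaks, the ESC list covered as much as the D-EPSC list. Of 6709 genes 1316 were then lower in D-EPSCs (19.6%) and 2850 were higher (42.5%). With every ESC peak trimmed, 1133 of 6862 genes were lower (16.5%) and 2071 were higher (30.2%), with a median log2 ratio of 0.18. Both constructions remove narrow ESC peaks first, and start sites with an ESC peak dropped to 1353 and 2833 of 22350. The higher calls at equal bases therefore carry this loss of narrow ESC peaks and cannot be told apart from gains. The ESC peaks left by trimming (18371 of 64342) were the wider ones. Lower calls at wide ESC domains therefore carry the construction too. Against the trimmed list, naive factors (5 of 19 lower, 1 higher) and polycomb repressive complex 2 (3 of 9 lower) had larger shares of lower genes than the 16.5% over all. So did Hox genes (3 of 3), 2-cell stage genes (3 of 4) and imprinted genes (3 of 6, 2 higher). Nodal and Lefty genes (3 of 12, 1 higher) and other lists did too. The lower 2-cell stage genes included Pramel6 and Pramel7, whose loci overlap. Hoxc12 and Hoxc13 had the same log2 ratio (-3.93). Such members are not separate losses, so these 2 shares cannot be read as results about the lists. Among the genes named above, Klf5, Nr5a2, Sparc (log2 -0.66), Srebf2 (-0.73) and Tet1 (-0.91) were also under 2-fold against the trimmed ESC list, as were Rps18 (0.72) and Rpl35 (0.46) within 20 kb of their start sites. Formative factors (9 of 17 higher) and ribosomal protein genes (20 of 45 higher, none lower) had larger shares of higher genes than the 30.2% over all. X-linked genes (5 of 6, 1 lower) and retinoic acid genes (3 of 6) did too. So did TCA cycle genes (6 of 16) and Wnt genes (5 of 13, 1 lower). These higher calls carry the loss of narrow ESC peaks, so gains in particular lists cannot be read from them.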

How the data were processed

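H3K27ac and H3K4me1 ChIP-seq peak lists of 3 states were used, from 15 samples (2 per mark and state, and 1 input per state). From the submitters' processing notes and the methods of the study, the authors trimmed reads with Trim Galore 0.6.3 and cutadapt, checked them with FastQC 0.10.1, aligned them to mm9 with Bowtie2 2.3.5, used SAMtools 1.10 and HOMER, and ran MACS2 in broad mode with the input as control. Deposited files give peak positions only, 1 list per state and mark. Read depth, peak thresholds and whether replicates were pooled are not given in the sources used here.

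Overlaps of at least 1 bp, distances and covered bases were computed with Python 3.11.15, numpy 2.4.6 and scipy 1.17.1, and were tested on simulated peaks. Each of 22350 GENCODE M1 protein-coding records gave 1 start site, its 5′ end, so alternative promoters are missed (Esrrb, Dnmt3a), and where a symbol had several records the longest was used. Of the list symbols, 22 had no such record. Gene values use the span with 10 kb on either side, 0.5 kb added before a ratio, a 2 kb minimum and a 2-fold difference. Named were the 10 largest falls and rises in loci of at most 200 kb with the same direction at equal covered bases, list members past the fold, the 3 widest isolated and the 5 widest peaks of each list, and the 5 widest peaks at lost and gained start sites. Other genes, including list members under the fold, were chosen after their values were seen. Some named items are not reported here. Members and lists were chosen with earlier results of these data known. Alternatives changed the overlap, the start site window, the minimum cover, peak width, the number of peaks and the covered bases.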

Additional observations from a re-analysis of the deposited data

How the results depend on the processing

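No paired analysis was possible because the lists carry no replicate, and leaving out a replicate was not possible for the same reason. The share of ESC peaks kept (36.5%) became 20.9% when at least 50% of the query peak had to overlap, 15.1% for both peaks, 41.1% with a counterpart within 1 kb, 40.4% with peaks joined, 36.0% for peaks of at least 500 bp, 87.1% at equal covered bases and 53.5% at equal peak number. The share of D-EPSC peaks kept (81.5%) became 73.2%, 29.7% and 84.7% under the first 3 of these, 27.9% at equal covered bases and 66.0% at equal number. Lost peaks at a start site (4.44%) became 3.19% and 9.46% with windows of 500 and 2500 bp, 7.98% at equal bases, 5.86% for peaks of at least 500 bp and 3.66% with a counterpart within 1 kb. For kept ESC peaks (25.5%) these were 23.6%, 28.7%, 21.2%, 26.6% and 24.2%. For gained peaks (23.9%) the 2500 bp window gave 26.2%, equal bases 25.3% and the 500 bp minimum 27.7%. Equal bases gave 175 lost, 1178 kept and 6714 gained start sites, and 1316 lower and 2850 higher genes. Relative to the median gene 1810 were lower and 1312 higher, with a 4 kb minimum 70 were higher, and with any covered base 681 were. The log2 ratio of covered bases was -0.19 within 1 kb of a start site. The log2 ratio of the share of chromosome X (0.94) became 2.05 at equal bases and 0.58 for numbers of peaks. Against the widest ESC peaks Myc (0.99), Stat3 (3.13) and Tcf7l2 (2.92) reversed, and within 20 kb of its start site Cuedc1 (-1.08) did. The following settings were chosen after seeing the data. With trimmed ESC peaks 61.2% of ESC and 44.7% of D-EPSC peaks were kept, 4.94% of lost, 19.3% of kept ESC and 26.1% of gained peaks were at a start site, start sites numbered 302 lost, 2531 kept and 5361 gained, genes numbered 1133 lower and 2071 higher, and the value of chromosome X was 1.78. Without peaks with a repeated centre 35.2% of ESC and 79.8% of D-EPSC peaks were kept, and 26.7% of kept ESC peaks were at a start site. Equal covered bases leave out narrow ESC peaks by construction, and the cause of the other changes was not tested.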
